A study of Mus musculus with 2 samples.

Results

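Circadian clock genes were examined in maps of accessible chromatin from newborn mouse lung. The set held 10 genes of the 21938 protein-coding genes annotated, chosen by name as the core of the clock: Clock, Arntl, Per1, Per2, Per3, Cry1, Cry2, Nr1d1, Nr1d2 and Dbp. For each gene, DNase-seq peaks within 500 bp of any annotated transcription start site (TSS) were taken as promoter peaks, and peaks farther than 1000 bp from every TSS but within 50 kb of the gene as distal. The maps came from whole lung of mice of strain B6NCrl on postnatal day 0, in 1 group of 2 biological replicates. Each replicate has a biosample entry of its own, both point to a single donor entry, the sex was not collected, and nothing says whether a sample is an animal or a pool. The labels used here give no time of day for the collection. DNase I cuts most readily where nucleosomes have moved aside, so peaks of cutting point to regulatory DNA such as promoters and enhancers. No condition was compared, so the values below are descriptions, with the spread between the replicates and the level over all genes beside them. Whole lung mixes cell types, and a weaker peak in all cells cannot be told apart from a strong peak in few.

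The circadian clock is a transcriptional feedback loop. CLOCK and ARNTL (BMAL1) form a heterodimer that binds E-boxes and activates the Per and Cry genes, whose proteins then inhibit the heterodimer. The same E-boxes drive Nr1d1 and Nr1d2, which encode the nuclear receptors REV-ERB alpha and beta. These receptors repress Arntl through ROR elements, which they share with the activating ROR receptors. DBP, a PAR bZIP factor and an E-box target, activates through D-boxes. In the lung the clock runs in airway epithelium among other cells, and glucocorticoids, which induce Per1, can set its phase.

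The sequences of the shared promoter sites that hold an E-box or a D-box are shown because these motifs tie the genes into the loop. A site is an interval of merged, overlapping peaks, and it is shared when it holds peaks of both replicates. Sequences are from the GRCm38 (mm10) RefSeq assembly, 5′ to 3′ on the strand of the gene, with annotated UTR bases left out. Capitals mark the E-box (CACGTG), the E′ box (CACGTT or its complement AACGTG) and the D-box (TTATGTAA or TTACGTAA, or the complement TTACATAA).
Per1, 5′ end (chr11:69095036-69095216, plus strand): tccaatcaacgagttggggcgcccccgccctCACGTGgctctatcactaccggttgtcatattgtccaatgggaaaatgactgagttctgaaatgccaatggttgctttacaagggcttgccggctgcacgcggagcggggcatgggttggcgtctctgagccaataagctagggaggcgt
Per1, internal TSS (chr11:69098716-69098905, plus strand): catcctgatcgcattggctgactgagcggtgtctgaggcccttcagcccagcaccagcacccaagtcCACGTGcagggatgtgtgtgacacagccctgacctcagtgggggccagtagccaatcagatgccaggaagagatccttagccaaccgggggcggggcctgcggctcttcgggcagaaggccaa
Per2 (chr1:91459356-91459505, minus strand): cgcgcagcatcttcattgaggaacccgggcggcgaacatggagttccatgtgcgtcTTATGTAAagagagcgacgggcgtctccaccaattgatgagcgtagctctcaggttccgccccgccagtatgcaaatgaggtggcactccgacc
Per3 (chr4:151044716-151044905, minus strand): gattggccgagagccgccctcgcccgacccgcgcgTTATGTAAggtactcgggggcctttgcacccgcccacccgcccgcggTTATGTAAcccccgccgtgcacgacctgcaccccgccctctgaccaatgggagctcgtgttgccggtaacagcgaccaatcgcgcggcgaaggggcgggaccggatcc
Cry1 (chr10:85185065-85185165, minus strand): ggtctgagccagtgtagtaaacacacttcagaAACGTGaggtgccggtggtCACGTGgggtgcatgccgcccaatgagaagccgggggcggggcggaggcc
Nr1d2, intron (chr14:18238476-18238625, minus strand): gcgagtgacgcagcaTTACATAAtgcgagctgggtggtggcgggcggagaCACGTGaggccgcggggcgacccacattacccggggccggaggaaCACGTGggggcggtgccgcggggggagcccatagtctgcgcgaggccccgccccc
Dbp, internal TSS (chr7:45707716-45707885, plus strand): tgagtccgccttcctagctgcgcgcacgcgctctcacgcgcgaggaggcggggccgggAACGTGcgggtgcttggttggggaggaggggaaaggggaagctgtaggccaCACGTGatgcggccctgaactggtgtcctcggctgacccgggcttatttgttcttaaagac

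All 10 clock genes had a shared promoter site, against 68.5% of protein-coding genes. Each replicate listed a promoter peak for 10 of 10 members, against 72.3% of genes in replicate 1 and 69.2% in replicate 2. A promoter hotspot, the broader interval that the authors also deposited, was found in both replicates for 10 of 10 members, against 69.2% of genes. Promoters rich in CpG dinucleotides are open in most tissues, and the number of CpGs within 500 bp of the 5′ end had a median of 86.5 over the members and 41 over all genes. It was above 41 for every member except Nr1d1, with 32. Among genes in the same decile of CpG number as each member, 79.2% to 97.0% had a shared promoter site, and the count of 10 has to be read against those shares. The members carried 26 shared promoter sites, and 7 of 10 had at least 2, against 40.6% of all genes. Of the 15032 genes with a shared promoter site, 8901 had at least 2. The members had a median of 4 annotated TSSs, against 3 over all genes, so more sequence was searched for them.

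The authors' score reached 150 (what it measures is not given in the sources used here), which is also the peak width in bp. The median score of the members' strongest promoter peaks was 142.5 (replicate 1) and 124.5 (replicate 2). Over protein-coding genes with a promoter peak it was 120 and 101. Scores exceeded the median over genes in both replicates for 9 of 10 members and for 46.2% of the 15007 genes with a shared site. They exceeded the upper quartile in both for 7 of 10 members and for 20.3% of these genes. Against genes in the same decile of CpG number, 8 of 10 members were above the median in both replicates, and 45.5% of these genes. Within their deciles Clock was at the 50.6 and 28.2 percentiles and Per3 at the 81.1 and 45.4 percentiles. Per1 had the highest score of the 10 in both replicates and Clock the lowest, whereas the genes between them changed places. Per3 and Cry1 lay between Clock and the other 7 genes in replicate 2, but in replicate 1 Nr1d1 had the same score as Cry1.

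**Figure D1:**
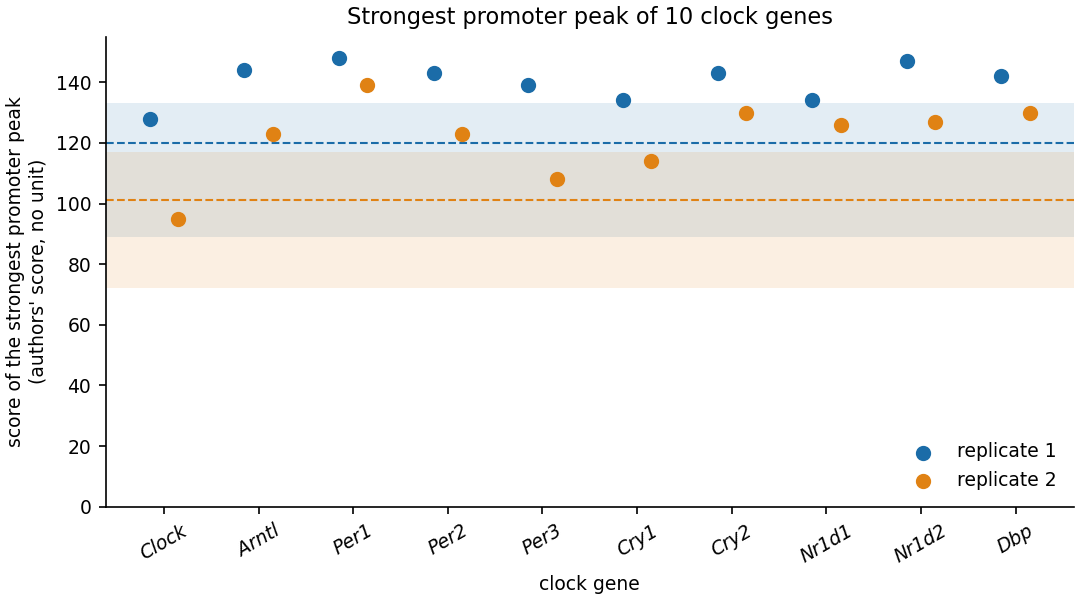
Score of the strongest promoter peak (authors' score, vertical axis) of each clock gene (horizontal axis) in replicate 1 (blue) and replicate 2 (orange). Dashed lines and shaded bands give the median and the quartiles over protein-coding genes with a promoter peak in that replicate; Clock in replicate 2, at 95, was the only point under the median of its replicate.

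The activators stood apart from one another. Clock, which encodes the bHLH-PAS partner of ARNTL, had a strongest promoter peak of 128 in replicate 1 and 95 in replicate 2. These are the 64.1 and 42.7 percentiles of promoter peaks in the same replicate. Its site, chr5:76304716-76304885, is centred 9 bp upstream of the gene model's start, and a TSS of the neighbouring gene Gm7467 also lies within 500 bp, so that the peak cannot be given to Clock alone. A weaker site in the first kilobase, chr5:76304236-76304425, had scores of 71 and 47. Arntl, the partner whose own transcription cycles, had 144 and 123 at its 5′ end (96.4 and 84.7 percentiles). Further shared sites of Arntl lay 0.31 kb downstream, with scores of 101 and 72, and at an internal TSS 32289 bp into the gene, where a pair of sites scored 83 and 59, and 116 and 94.

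The Arntl promoter site is shown because it was the widest of the 26, at 290 bp, and held none of the 6 motifs searched. The choice was made after its values were seen. Capitals would mark motifs and are absent.
Arntl, 5′ end (chr7:113207176-113207464, plus strand): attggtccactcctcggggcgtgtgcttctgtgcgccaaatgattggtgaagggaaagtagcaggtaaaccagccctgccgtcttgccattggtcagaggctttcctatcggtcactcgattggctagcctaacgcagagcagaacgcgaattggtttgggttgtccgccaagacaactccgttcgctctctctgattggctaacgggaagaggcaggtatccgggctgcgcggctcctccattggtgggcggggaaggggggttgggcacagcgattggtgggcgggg
An ROR element, the site through which REV-ERB receptors repress Arntl, was found just beside it. The match lay at chr7:113207537-113207547 in the annotated 5′ UTR, inside the hotspots of both replicates, with its centre 77 bp from the nearest shared site. The clearest peak of the Arntl promoter was therefore upstream of the element, and the element itself lay between peaks.

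The Period genes, whose proteins form the repressor complex, were ordered Per1, Per2, Per3 in both replicates. Per1, which answers acutely to light, cAMP and glucocorticoids, had 148 in replicate 1 and 139 in replicate 2 at chr11:69095036-69095225. Of protein-coding genes, 49 scored at least as high in replicate 1 and 40 in replicate 2, Per1 included, and 7 did in both. Per2, needed for normal behavioural rhythms, had 1 shared promoter site, with scores of 143 and 123 (94.9 and 84.7 percentiles). Per3 also had 1, with 139 and 108 (87.4 and 60.3 percentiles), and it lies in an intron annotated to Camta1 as well as upstream of Per3. A second Per3 peak of 60 was listed in replicate 1 alone.

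Per1 had 6 TSSs in the annotation, and shared sites lay near more than 1 of them. TSSs of all annotated transcripts were used, and whether a site at an internal TSS acts as a promoter was not tested. The 5′ end of Per1 carried the strongest site, and the TSS 3731 bp downstream carried chr11:69098716-69098905, with scores of 128 and 111. A further site near that TSS, chr11:69099356-69099525, had 109 and 75 and held the core of a glucocorticoid response element (ACANNNTGT), which 2.65% of all shared promoter sites hold. The TSS 4935 bp downstream had 127 and 106. A further peak, of 47, was in replicate 1 alone. The first and the second site each held an E-box, 147 bp and 162 bp upstream of their TSS. Between these TSSs, a site in an intron, 1.9 kb from the 5′ end, had 143 and 126. Its scores had ranks 22 and 45 among the 120862 shared distal sites of the genome. It is shown because it holds the only CRE (TGACGTCA), the element of cAMP-responsive CREB, within 5 kb of the gene, and a glucocorticoid response element core. It was picked after its values were seen.
Per1, intron (chr11:69097056-69097225, plus strand): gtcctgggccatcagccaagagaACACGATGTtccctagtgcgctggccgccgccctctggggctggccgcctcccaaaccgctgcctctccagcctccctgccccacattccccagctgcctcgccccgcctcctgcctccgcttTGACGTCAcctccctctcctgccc
The next intronic site, 2.5 kb from the 5′ end, had 133 and 108 and held an E-box. Over the Per1 gene with 5 kb on either side, 4 of 7 E-boxes lay in shared sites, which covered 8.41% of the region. This was the largest share of any member. The share was 2 of 4 for Nr1d2, but 0 of 11 for Clock, 0 of 13 for Arntl and 0 of 6 for Per2.

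The Cryptochrome genes encode the main inhibitors of CLOCK and ARNTL. Cry2 had the stronger top peak and the more shared sites. Its strongest promoter peak had 143 in replicate 1 and 130 in replicate 2 (94.9 and 94.7 percentiles), and 5 shared promoter sites were found. Of these, chr2:92434116-92434265 was the strongest and held an E′ box 190 bp upstream of the TSS. The other 4 had scores of 82 to 122 in replicate 1 and 49 to 85 in replicate 2, and 1 further site was listed in each replicate alone. Cry1 had 134 and 114 (76.6 and 69.8 percentiles) at a site centred 347 bp upstream of its TSS. The Cry1 site that covers the TSS had 124 and 107, above the other 4 Cry2 sites in both replicates. It held both an E-box, 48 bp upstream, and an E′ box, 67 bp upstream. With a promoter of 250 bp on either side of the TSS in place of 500 bp, the mean percentile of Cry1 was 58.1, against 73.2. Cry1 had the highest CpG number of the members, 134, and Nr1d1 the lowest, 32.

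The REV-ERB genes, which form the stabilising loop, were both accessible. Nr1d1 had 1 shared promoter site, with scores of 134 and 126 (76.6 and 89.6 percentiles), and it held an E′ box 70 bp upstream of the TSS. An E-box and another E′ box were centred 93 bp and 80 bp outside that site, within the hotspots of both replicates. Nr1d2 had 147 and 127 (99.5 and 91.1 percentiles) at its 5′ end, where none of the motifs was found. Its clock motifs lay in a second site, chr14:18238476-18238625 in an intron 0.58 kb from the 5′ end, with scores of 133 and 119. This site held 2 E-boxes and a D-box within 150 bp, more copies than any other member site. Dbp, the output factor that acts on D-boxes, had 142 and 130 (93.2 and 94.7 percentiles) at its 5′ end. That site held an ROR element, which 0.114% of all shared promoter sites hold. The Dbp E-box and E′ box lay at another TSS, 2801 bp downstream, in a site with scores of 131 and 103. Another shared site between them had 112 and 88, and 2 weaker peaks were in replicate 1 alone.

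**Figure D2:**
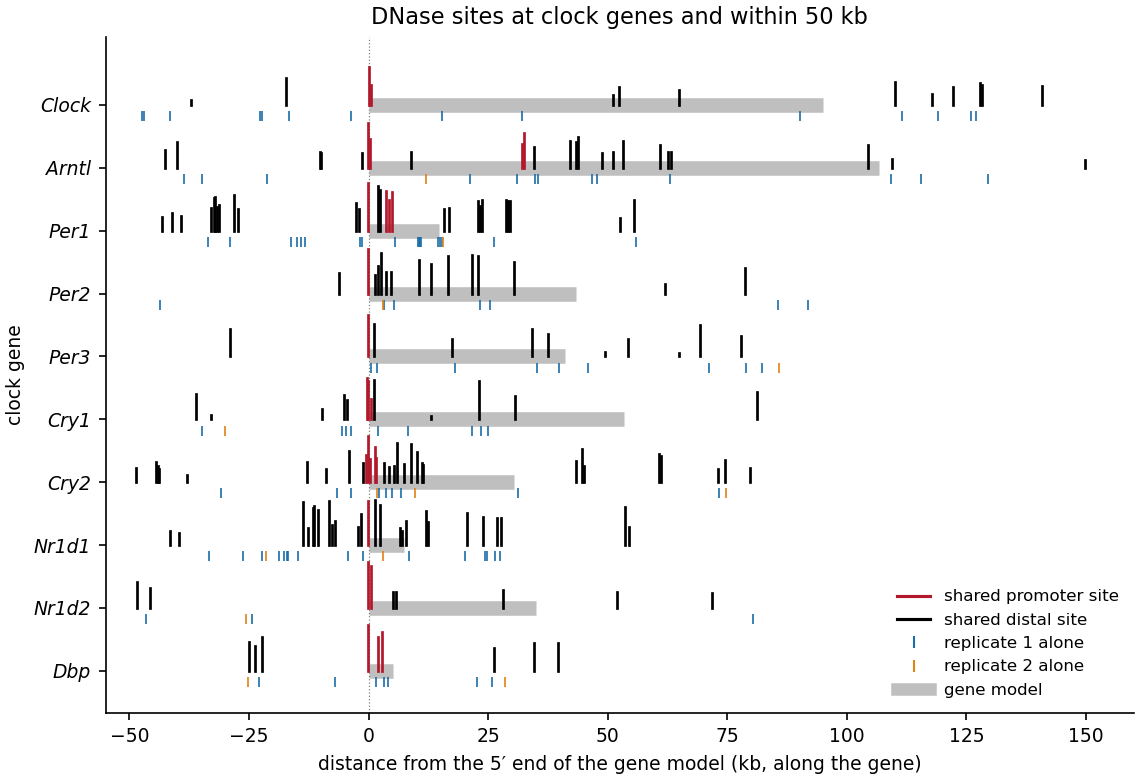
Sites of each clock gene by distance from its 5′ end (kb, along the gene), with the gene model in grey. Lines above a gene are shared promoter (red) and shared distal (black) sites, with height proportional to the mean score of both replicates; ticks below are sites of replicate 1 alone (blue) and replicate 2 alone (orange). Promoter sites in red lie near 0 for most genes but also 3.6 to 4.8 kb into Per1 and about 32 kb into Arntl.

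In all, 8 of the 10 genes held an E-box, E′ box, D-box or ROR element in a shared promoter site, and Clock and Arntl held none. The share of all genes with any of the 4 was not counted. Only the shares by site and motif that follow have a background. The E-box was found in 5 of 26 member sites (19.2%), against 6.02% of the 28046 shared promoter sites of protein-coding genes. The E′ box was found in 4 (15.4%), against 3.33%, and the D-box in 3 (11.5%), against 0.563%. The ROR element was in 1 (3.8%), against 0.114%, and the glucocorticoid core in 1, against 2.65%. The CRE was in 0 of the 26, against 1.82%. Several of these genes are textbook examples of the motifs, so the shares describe the sites and are no independent test. The median width was 170 bp for member sites and for all sites. The sites were not matched for CpG number, which was higher for the members, and the E-box and E′ box each contain a CpG. Both strands were searched, and a match is a match of letters only.

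The peaks covered only some of the copies near the TSSs. Within 500 bp of any TSS of a member, 29 copies of the 4 clock motifs were found, of which 15 lay in a shared site and 25 in a hotspot of both replicates. For the E-box these numbers were 11, 6 and 10. How much of these windows the sites and hotspots cover was not counted, so the numbers cannot be read against coverage. Per2 had a copy of a clock motif beside its peak. The E′ box, known as the element that drives Per2 rhythms, was centred 7 bp downstream of the annotated 5′ end. Its centre lay 39 bp from the edge of the shared site, within hotspots of both replicates. The Per2 peak itself held a D-box 122 bp upstream of the TSS. In the RefSeq promoter windows around the TSS, which were given for 9 members, 2 held an E-box (Per1 and Cry1), against 8.91% of 17492 genes.

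Hotspots gave no ranking of the promoters, because the value of the strongest was 100 on the −log10 q scale, the highest in the file, for 10 of 10 members in both replicates. That was so for 59.5% of protein-coding genes. The widths of the members' hotspots did differ. The widest promoter hotspot in replicate 1 was that of Per1, at 3796 bp, and it ran across the 5′ end and both intronic sites described above. In replicate 2 the widest of Per1 had 1563 bp and lay at the internal TSS. Widths of the other members were 1131 to 3097 bp in replicate 1 and 850 to 1860 bp in replicate 2. The medians of the widest promoter hotspot over genes were 1097 and 851 bp.

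In all, 152 shared distal sites lay within 50 kb of a member, with a median of 12.5 per gene, against 8 over all genes. Cry2 had 26 (34 in replicate 1 and 28 in replicate 2), Nr1d1 had 25 (41 and 27) and Per1 had 24 (41 and 25). Among genes in the same decile of length, these counts were at the 99.2, 99.8 and 99.5 percentiles. Arntl had 19 (32 and 20) and Per2 had 14 (21 and 15), at the 79.6 and 75.2 percentiles. Clock had 11 (25 and 11), at the 41.8 percentile. Per3 had 10 (18 and 11) and Cry1 had 10 (19 and 11), both at the 52.4 percentile. The lowest counts were those of Nr1d2, with 7 (10 and 8), and Dbp, with 6 (11 and 8), at the 39.4 and 55.1 percentiles.

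Other genes share these windows. The nearest protein-coding TSS was the gene's own for only 4 of the 24 sites of Per1, whose window holds TSSs of 8 other protein-coding genes. For Dbp, with 9 such neighbours, it was 0 of 6. For Cry2, with 5, it was 13 of 26, for Clock 3 of 11 and for Per3 4 of 10. For Cry1 it was 9 of 10 and for Nr1d2 5 of 7. For Arntl, with 1 neighbour, it was 18 of 19, and 12 of these 19 lay inside the gene. For Per2 it was 11 of 14, and 11 of the 14 lay inside the gene. For Nr1d1 it was 12 of 25, and some of the rest lay in introns of the adjoining gene Thra. With RefSeq in place of GENCODE gene models Per1 had 15 distal sites, against 24, while Nr1d1 had 29, against 25.

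**Figure D3:**
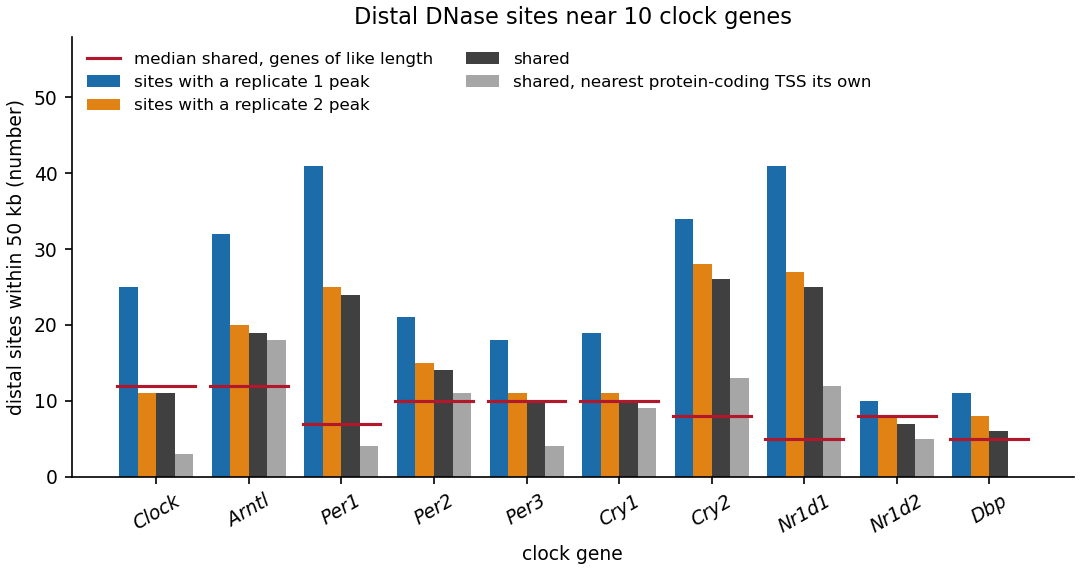
Number of distal sites within 50 kb of each clock gene with a peak in replicate 1 (blue), in replicate 2 (orange), in both (dark grey), and in both with the gene's own TSS as the nearest protein-coding TSS (light grey). Red lines give the median shared count of genes of like length. Per1, Cry2 and Nr1d1 lie far above it, but their light bars fall to 4, 13 and 12.

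Distal sites were ranked by the mean of their score percentiles in both replicates. On this measure the strongest site of 6 members, Per1 among them (above), lay in an intron of the gene. For Nr1d1 it was chr11:98773896-98774125, 1.3 kb downstream of the 5′ end, with scores of 143 in replicate 1 and 124 in replicate 2. It ranked 22 and 67 among the shared distal sites and exceeded the Nr1d1 promoter peak in replicate 1, but not in replicate 2. It held a D-box. The strongest of Per2 was 2.7 kb downstream (131 and 109), that of Cry2 6.0 kb (124 and 107), that of Cry1 1.2 kb (122 and 112) and that of Arntl 43.8 kb (105 and 77). For Cry2 a site in an exon, 8.9 kb downstream, was higher in replicate 1 (126 and 103). For the other 4 members the first-ranked site lay outside the gene, nearest to the TSS of Pdcl2 for Clock, Uts2 for Per3, Rpl15 for Nr1d2 and Ntn5 for Dbp. For Per3 the order depends on the replicate. The outside site had 101 and 86, and a site in the gene's own intron, 1.2 kb downstream of the 5′ end, had 121 and 70.

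Cry1 had a second intronic site as strong in replicate 1 as its first. It lay 23.1 kb downstream of the 5′ end, with scores of 122 and 106, and held both ROR elements found in Cry1 with 5 kb on either side. REV-ERB and ROR act on Cry1 through intronic elements, which is why the site is shown. The strongest Nr1d1 intronic site follows it for its D-box. Both were picked after their values were seen. Capitals mark the ROR elements, the second on the other strand, and the D-box.
Cry1, intron (chr10:85161856-85162005, minus strand): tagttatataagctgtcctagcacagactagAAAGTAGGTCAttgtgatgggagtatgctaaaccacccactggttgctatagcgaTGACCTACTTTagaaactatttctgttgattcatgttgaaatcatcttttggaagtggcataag
Nr1d1, intron (chr11:98773896-98774125, minus strand): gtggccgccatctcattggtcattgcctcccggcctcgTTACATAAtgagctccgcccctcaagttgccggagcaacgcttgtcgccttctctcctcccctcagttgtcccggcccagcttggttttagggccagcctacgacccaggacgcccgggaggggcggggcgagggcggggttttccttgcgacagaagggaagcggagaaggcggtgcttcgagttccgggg
Over all 10 genes with 5 kb on either side, 6 of 17 ROR elements and 12 of 82 E-boxes lay in shared sites, which covered 3.65% of the sequence. For the D-box the count was 5 of 43, for the E′ box 7 of 75, for the CRE 1 of 5 and for the glucocorticoid core 11 of 175. The glucocorticoid core is not among the clock motifs, and its share was also above that coverage. Among the 152 distal sites, 9 held an E-box (5.9%, against 3.32% of all shared distal sites) and 5 an ROR element (3.3%, against 0.402%). The CRE was in 2 (1.3%, against 0.447%). The other motifs were below the level of all shared distal sites, the E′ box with 3 (2.0%, against 2.74%), the D-box with 1 (0.7%, against 1.34%) and the glucocorticoid core with 10 (6.6%, against 7.22%).

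Scores were higher in replicate 1 for 10 of 10 members, as for nearly all genes. The median log2 ratio of replicate 1 to replicate 2 was 0.21 over the members (SD 0.11, n = 10 genes) and 0.25 over all genes, and it can be read only against that background because the depth of the lists is not known. It ranged from 0.09 at Per1 and Nr1d1 to 0.43 at Clock. Among genes whose replicate 1 score was within 2 of their own, Per3 (0.36) and Clock were at the 98.9 and 97.0 percentiles of this ratio, and Nr1d1 and Per1 at the 5.7 and 10.1 percentiles. The 2 scores of Per3 and of Clock thus lay farther apart than those of most genes of like strength, and 2 libraries cannot show whether samples of this kind differ there in general.

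The 18 other clock genes listed all had a shared promoter site, against 68.5% of protein-coding genes. Their CpG number had a median of 67.5, against 41 over all genes. They had a median of 5.5 annotated TSSs, against 3 over all genes, so more sequence was searched for them. The median score of their strongest promoter peaks was 121.5 (replicate 1) and 103 (replicate 2), below the members and close to all genes. The upper quartile was exceeded in both replicates by 4 of 18, and by 20.3% of the 15007 genes with a shared site. Btrc, a ubiquitin ligase subunit that degrades PER proteins, led with 148 and 135. Tef, a PAR bZIP relative of Dbp, had 147 and 129, and Ciart, a repressor of CLOCK and ARNTL, had 140 and 128. The paralogues of the activators ranked low: Npas2, which can stand in for Clock, had 84 and 56, and Arntl2 had 108 and 90. Rora, an activator at ROR elements, had 133 and 105, and 71 shared distal sites within 50 kb of its 734.5 kb gene model. That count was not ranked among genes of like length. Npas2, Arntl2 and Rora were named after their values were seen.

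**Figure D4:**
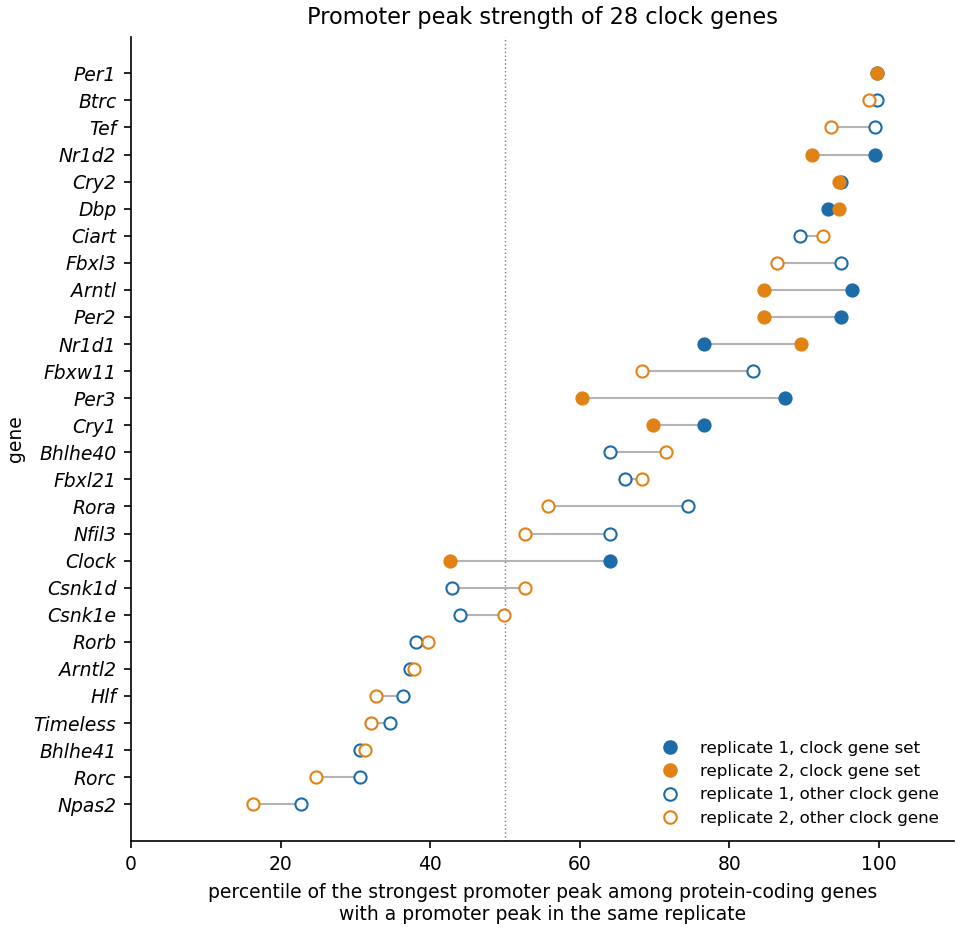
Percentile of the strongest promoter peak among protein-coding genes with a promoter peak in the same replicate (horizontal axis), for the clock genes (filled) and the other clock genes (open), with replicate 1 in blue and replicate 2 in orange. Per1 is at 99.8 in both replicates, and Npas2 is lowest at 22.7 and 16.3.

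The tissue label was checked on marker genes. All 9 lung markers had a shared promoter site, against 68.5% of protein-coding genes. Their scores were 65 to 125 in replicate 1 and 54 to 102 in replicate 2. Mean percentiles over both replicates ran from 15.1 (Pecam1) to 51.7 (Foxj1), so most lay under the median over genes. Of the 6 markers of liver, pancreas and heart, 2 had a shared promoter site: Cela1 (92 and 66) and Alb (36 and 40). Cela1, a pancreas marker at a mean percentile of 24.1, ranked above Pecam1 and close to Sftpc (24.3). The markers thus separate the tissues only in part. Apob, Cpa1 and Nppa had no promoter peak, and Myh6 had one of 21 in replicate 2 alone.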

How the data were processed

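DNase-seq files of 2 biological replicates of newborn mouse lung were used. Per the deposited notes, the authors called peaks and hotspots separately in each library, aligned to mm10. The sources used here do not give the aligner, the caller, their versions or the depth. The deposited peaks are 150 bp wide and carry the authors' score. The deposited hotspots carry a −log10 q-value (−log10 of the q-value per the file format). On chromosomes 1 to 19, X and Y, 276480 and 188498 peaks and 245628 and 170519 hotspots were used, after removal of 26 and 23 duplicate peaks. Overlapping peaks were merged into 290376 sites, of which 161051 were shared (overlap of at least 1 bp). TSSs were those of GENCODE, on GRCm38, and sequences were RefSeq's. Scores were ranked within each list. CpG number was counted within 500 bp of the 5′ end. Motif distances were taken from the centre of the motif. Merging was checked on simulated data. Python 3.11.15, numpy 2.4.6, pysam 0.24.0 and samtools 1.23.1 were used.

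Members, lists and motifs were chosen with earlier results of these data known. Named were all members, the 3 other clock genes with the highest mean percentile and any without a shared site, the strongest shared distal site of each member with its nearest gene, and sequences of promoter sites with an E-box or D-box outside UTRs. Exceptions are marked. No test was made, since there is 1 group. Alternatives changed the overlap, the score limit, the width and TSSs of promoters, the gene models and the distance, used hotspots for peaks, or used 1 replicate.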

Additional observations from a re-analysis of the deposited data

How the results depend on the processing

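Of 79 alternatives, 68 left the value the same within its spread (counts within 1.5 times) and 11 moved it. Most values are counts or percentiles, which have no direction to turn. Of the 79, 30 were percentiles of single members under other promoter windows, and 3 of these moved. The scores ranked there were unchanged except that of Cry1 at 250 bp, so these 30 say little about robustness. All 10 members and 18 other clock genes had a promoter site under each alternative run for them. Each replicate alone gave 165 to 252 distal sites in all, against 152 shared, and a median per gene of 13 to 23, against 12.5. A window of 20 kb gave 99 in all. A window of 100 kb gave 230 in all and a median of 22.5. Counting only sites with the gene's TSS as the nearest protein-coding TSS, at any distance, gave 87 in all and a median of 7.5. The members' log2 ratio of replicate 1 to 2 differed by -0.03 from that of all genes and by -0.23 from that of all shared sites. The number of members with a clock motif in a promoter site, 8, was 7 to 9 under the alternatives that used open sites. In the RefSeq promoter windows, given for 9 members and searched without regard to peaks, 6 members held a clock motif. Leaving out a replicate leaves 1 sample, so those values have no replicate check. No paired analysis was possible because the replicates form 1 group. Unknown depth limits all counts: a site absent from a list may be below its threshold.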

Other observations

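The Arntl promoter site held 8 copies of CCAAT, the box bound by NF-Y, on either strand. Of the 28046 shared promoter sites of protein-coding genes, it was the only 1 with that many, also among the 674 within 20 bp of its width. The Per1 site at the 5′ end held 4 copies, which 0.292% of sites match or exceed, and the Per3 site held 3, which 1.45% match or exceed. Of the 26 shared promoter sites of members, 12 held at least 1 copy (46.2%), against 22.8% of all shared promoter sites, and 6 held at least 2 (23.1%), against 6.12%. No shared promoter site of Clock, Nr1d1 or Nr1d2 held a copy. The motif was looked for after the sequences were seen, no test was made, and a match is no evidence of binding.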
